A study of Mus musculus with 4 samples.

Results

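The 5 dopamine receptor genes of the mouse, Drd1, Drd2, Drd3, Drd4 and Drd5, were examined among 31053 measured genes in single-nucleus RNA-seq of brain tissue. They were taken by name, and all 5 were counted in each of the 4 libraries. At 4 weeks of age, male C57BL/6J mice were injected in the cisterna magna, a fluid space at the base of the brain, with a gene-carrying virus (AAV), and brains were collected at 8 weeks. AAV-VEGF-C encoded the complete mouse VEGF-C, a growth factor of lymphatic vessels. AAV-CTRL encoded a soluble piece of the receptor VEGFR-3 that lacks the part binding that factor, fused to an immunoglobulin tail, so that control mice also carried a virus and a secreted protein. Tissue of 5 mice was pooled for each virus. The libraries were 1 each of cortical cells with AAV-CTRL, cortical cells with AAV-VEGF-C, striatal cells with AAV-CTRL and striatal cells with AAV-VEGF-C, and lists of 4 values below keep this order. With 1 library per group there were no replicates and no test was run. Every interval below, given in parentheses, is a 95% interval for counting error only and does not cover the spread between mice or preparations.

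The dopamine receptors are G protein-coupled receptors in a pair of families. The D1 family, Drd1 and Drd5, acts through Gs and Golf to raise cyclic AMP. The D2 family, Drd2, Drd3 and Drd4, acts through Gi and Go to lower it. In the striatum most neurons are spiny projection neurons (SPN). The direct pathway arises from SPN that carry Drd1 with the peptide genes Tac1 and Pdyn, and the indirect pathway from SPN that carry Drd2 with Penk and the adenosine receptor Adora2a. Drd2 is also an autoreceptor of dopamine neurons, Drd3 is known from the ventral striatum and the islands of Calleja, and Drd5 from hippocampus and cortex.

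In GRCm38, Drd1 (ENSMUSG00000021478) lies on the minus strand at chr13:54051183-54055705. Drd2 (ENSMUSG00000032259) lies on the plus strand at chr9:49340627-49408177, Drd3 (ENSMUSG00000022705) on the plus strand at chr16:43754026-43822932, Drd4 (ENSMUSG00000025496) on the plus strand at chr7:141292006-141296464, and Drd5 (ENSMUSG00000039358) on the plus strand at chr5:38319367-38322518. Drd1 and Drd5 are compact genes of 4.52 and 3.15 kb. Drd2 and Drd3 span 67.6 and 68.9 kb with 2.55 and 1.71 kb of exon, which bears on any count taken in nuclei. An antisense gene, Gm26560, overlaps Drd5 and was counted too, and without the counting's strand setting their reads may be mixed.

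The start regions of the 3 receptor genes that most of the results concern are shown because these 3 genes marked different groups of nuclei. Each runs from 250 bases before to 50 bases after a RefSeq start (GRCm38.p6), 5′ to 3′ on the gene's strand. Capitals mark the letters GGGCGG, or their reverse complement, found in 35.7% of 32851 such regions. Drd1 is at chr13:54055609-54055908 on the minus strand, Drd2 at chr9:49340153-49340452 on the plus strand and Drd3 at chr16:43761971-43762270 on the plus strand.
Drd1: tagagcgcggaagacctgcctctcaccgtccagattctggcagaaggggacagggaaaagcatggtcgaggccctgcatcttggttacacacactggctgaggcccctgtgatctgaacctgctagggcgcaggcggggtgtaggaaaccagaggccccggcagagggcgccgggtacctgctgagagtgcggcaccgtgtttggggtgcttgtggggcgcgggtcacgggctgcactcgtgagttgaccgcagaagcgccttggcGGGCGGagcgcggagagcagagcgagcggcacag
Drd2: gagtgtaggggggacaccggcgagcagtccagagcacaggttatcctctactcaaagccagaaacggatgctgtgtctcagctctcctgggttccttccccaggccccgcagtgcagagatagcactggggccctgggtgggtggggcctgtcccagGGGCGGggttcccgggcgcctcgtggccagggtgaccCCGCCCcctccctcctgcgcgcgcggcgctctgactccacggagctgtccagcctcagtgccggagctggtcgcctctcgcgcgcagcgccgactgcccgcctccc
Drd3: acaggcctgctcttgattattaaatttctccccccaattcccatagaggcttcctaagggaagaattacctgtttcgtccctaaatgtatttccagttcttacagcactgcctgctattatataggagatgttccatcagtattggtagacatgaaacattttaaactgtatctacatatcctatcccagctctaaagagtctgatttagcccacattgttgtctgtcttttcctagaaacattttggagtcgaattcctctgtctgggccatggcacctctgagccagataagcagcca
The letters occurred in 1 place in the Drd1 window, in 2 places in that of Drd2 and in 0 places in that of Drd3. The G and C content was 65.7%, 70.3% and 42.0%, against a median of 52.7% over all such regions. The Drd3 window lies inside the gene span given above, which starts at 43754026, so it does not describe the start of that gene model. The Drd2 window ends before the Drd2 gene span, which starts at 49340627, so it does not hold the start of that gene model either. Another Drd1 window, at chr13:54054731-54055030, had a G and C content of 59.3% and is not shown. No measurement here was taken at these regions, and a match of letters is not a binding site.

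Doublets and 17 of 76 clusters were removed, which left 16224, 18854, 21347 and 16414 of 17168, 20370, 23724 and 17466 nuclei. Median depth was 2490.5, 2645.5, 2126 and 2538 unique molecular identifiers (UMIs) per nucleus. Neuron types were named from marker genes that include no dopamine receptor, on clusters made without the 5 receptor genes. SPN-like nuclei, named by markers such as Rgs9, Pde10a and Ppp1r1b, numbered 1175, 1461, 428 and 306. They were therefore 7.24% and 7.75% of nuclei under the cortex label but 2.01% and 1.86% under the striatum label. The libraries labelled striatal cells also held 1099 and 1022 thalamic neuron-like, 3487 and 3131 oligodendrocyte-like and 338 and 257 subcortical GABAergic-like nuclei, and 103 and 23 cortical excitatory-like nuclei, against 3614 and 4443 under the cortex label. The labels are thus used below only as labels, and a region comparison compares 2 mixtures of cells. Of the barcode sequences, 598 were present in 2 libraries.

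Within SPN-like nuclei, 446, 629, 97 and 75 were D1-type by markers such as Tac1, Pdyn and Ebf1, and 417, 553, 111 and 83 were D2-type by Penk, Adora2a, Gpr6 and others. A group of 147, 99, 160 and 97 nuclei had other SPN markers such as Otof, Casz1 and Tshz1, and 165, 180, 60 and 51 stayed untyped at a median depth of 2044, 1906, 1985.5 and 2666 UMIs, less than that of the typed nuclei. Tac1, for example, stood at 275, 386, 262 and 334 UMIs per 1000000 UMIs of those nuclei (CPM) in D1-type against 28.8, 32.9, 11.2 and 30.1 CPM in D2-type nuclei. Since these markers named the types, that difference is no finding. Other SPN-like nuclei had more Tac1 than D1-type nuclei, at 492, 623, 504 and 705 CPM, and had Pdyn at 138, 221, 141 and 193 CPM. Their largest subcluster, number 3 below, counted 4 D1-type and 4 other SPN markers. The name of this group therefore does not mean that D1-type markers were absent.

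Drd1, the principal Gs-coupled dopamine receptor of the striatum, was highest in D1-type nuclei in every library, with other SPN-like nuclei second. In D1-type nuclei the level was 226 (207 to 247), 289 (271 to 308), 258 (216 to 306) and 217 (176 to 265) CPM, from 495, 955, 132 and 96 UMIs. A UMI of Drd1 was present in 63.7%, 69.8%, 70.1% and 73.3% of these nuclei. The interval of the cortex AAV-VEGF-C library lay above those of the cortex AAV-CTRL and striatum AAV-VEGF-C libraries, and the other pairs of libraries overlapped. In D2-type nuclei Drd1 stood at 10.8, 13.3, 7.49 and 8.03 CPM, with a UMI in 4.32%, 4.70%, 2.70% and 2.41% of nuclei. Oligodendrocyte-like nuclei, glia that should lack dopamine receptors, gave 17.8 (13.2 to 23.6), 24.1 (19.0 to 30.1), 7.29 (5.29 to 9.78) and 5.70 (4.01 to 7.86) CPM. The D2-type level of Drd1 was therefore in the range of this background in CPM. These glial nuclei were shallow, at a median of 1603, 1607, 1659 and 2019 UMIs. A background of fixed count per nucleus would give a higher CPM in them than in deeper neurons, which was not tested.

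Other SPN-like nuclei also carried Drd1, at 160 (128 to 196), 271 (225 to 325), 183 (151 to 220) and 173 (137 to 215) CPM. Untyped nuclei gave 89.2, 208, 97.7 and 101 CPM. Averaged over libraries with equal weight, the order of classes was D1-type, other SPN-like and untyped SPN-like nuclei at 247, 197 and 124 CPM, then excitatory near-projecting-like nuclei at 25.8 CPM. Near-projecting-like, layer 6 corticothalamic-like, Sst interneuron-like, microglia-like and endothelial-like nuclei had ranges over libraries that overlapped, so that glial and vascular classes stood among the neurons. The lowest class, thalamic neuron-like nuclei, had 3.16 to 3.89 CPM, below the range of all of these. That class was ranked in the striatum-labelled libraries only, and the near-projecting-like and layer 6 corticothalamic-like classes in the cortex-labelled ones only. Non-neuronal nuclei had 19.5 and 22.5 CPM of Drd1 under the cortex label and 6.78 and 6.445 CPM under the striatum label, so the order also depends on the libraries counted. Microglia-like nuclei had 7.34 to 28.0 CPM and endothelial-like nuclei 6.15 to 29.5 CPM of Drd1.

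Among cortical excitatory classes, which were found in number in the cortex-labelled libraries only, Drd1 was highest in layer 6 corticothalamic-like and near-projecting-like nuclei. Layer 6 corticothalamic-like nuclei had 25.9 (21.2 to 31.2) and 21.8 (18.0 to 26.1) CPM, and near-projecting-like nuclei 21.0 (11.5 to 35.2) and 30.6 (19.4 to 45.9) CPM. Layer 4/5-like nuclei had 9.86 and 10.3 CPM, layer 5 extratelencephalic-like nuclei 5.70 and 5.19 CPM, and layer 2/3-like nuclei 4.77 and 11.2 CPM. A Drd1 UMI was found in 11.6% and 10.0% of layer 6 corticothalamic-like nuclei, at a median of 5072 and 4975 UMIs, and in 2.91% and 6.45% of layer 2/3-like nuclei at 5993 and 5871.5 UMIs. With every nucleus thinned to 1000 UMIs, the shares were 2.77% (1.75 to 4.17) and 3.30% (2.30 to 4.58) in layer 6 corticothalamic-like, 4.70% (1.91 to 9.44) and 4.09% (1.66 to 8.25) in near-projecting-like and 1.82% (1.22 to 2.60) and 1.94% (1.36 to 2.68) in oligodendrocyte-like nuclei. The thinned shares of both cortical classes were above the glial ones in point value, with intervals that overlapped them, and those of near-projecting-like nuclei rest on 7 nuclei with a UMI in each library. Layer 2/3-like nuclei were deeper than layer 6 corticothalamic-like nuclei and had the lower share before thinning.

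Drd2, the Gi-coupled receptor of the indirect pathway, was highest in D2-type nuclei in every library. They had 560 (528 to 595), 585 (557 to 615), 459 (403 to 520) and 508 (447 to 574) CPM, from 1090, 1584, 245 and 253 UMIs, and 84.9%, 87.3%, 78.4% and 88.0% of them had a UMI. The level of the striatum AAV-CTRL library lay below both cortex-labelled ones, with intervals that did not overlap. In D1-type nuclei Drd2 was at 5.94, 10.0, 7.81 and 9.04 CPM, and in other SPN-like nuclei at 3.59, 2.30, 7.83 and 6.49 CPM. Oligodendrocyte-like nuclei had 14.5, 22.8, 9.27 and 10.8 CPM of Drd2, so that D1-type and other SPN-like nuclei were no higher than glia in any library.

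**Figure D1:**
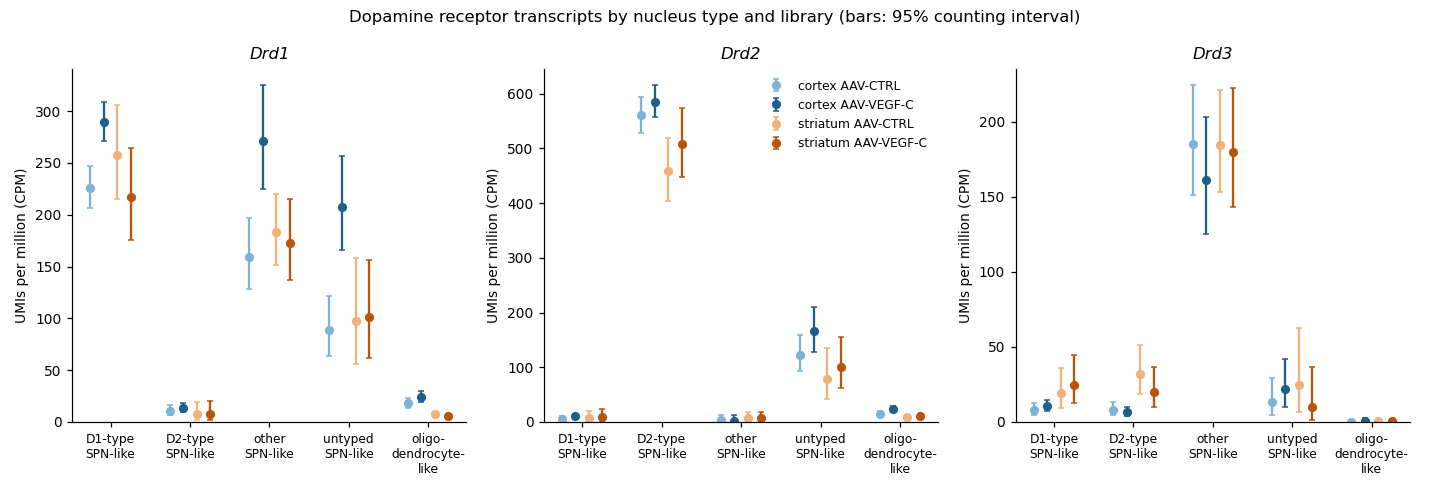
Level of Drd1, Drd2 and Drd3 in CPM (linear axis) in the 4 groups of SPN-like nuclei and in oligodendrocyte-like nuclei; points are single libraries and bars 95% counting intervals. Drd1 is high in D1-type and other SPN-like nuclei, Drd2 in D2-type nuclei (459 to 585 CPM) and Drd3 in other SPN-like nuclei (161 to 185 CPM).

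Outside SPN, Drd2 was found in nuclei that make dopamine or acetylcholine. Dopaminergic-like nuclei, with Th and Slc6a3 among their markers, numbered 31 and 39 in the striatum-labelled libraries and had 331 and 283 CPM of Drd2, from 75 and 94 UMIs. A cholinergic-like cluster of 15, 11, 30 and 43 nuclei gave 407, 419, 11.3 and 17.4 CPM from 42, 37, 2 and 5 UMIs. The Drd2 level of the cholinergic-like nuclei was thus high under the cortex label and near background under the striatum label, on few nuclei. Neuroblast-like nuclei had 15.7, 41.8, 35.8 and 50.3 CPM, and olfactory sensory neuron-like nuclei, seen in number only in the striatum AAV-CTRL library, had 88.8 (63.7 to 120) CPM from 41 UMIs in 237 nuclei. Thalamic neuron-like nuclei had 10.9 and 11.1 CPM of Drd2 at a median depth of 6901 and 8581.5 UMIs. Oligodendrocyte-like nuclei of the same libraries had 9.27 and 10.8 CPM at a median of only 1659 and 2019 UMIs. Levels at such unlike depth do not settle whether the thalamic-like counts are background.

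Drd3, the D2-family receptor of the ventral striatum, marked the other SPN-like nuclei. Their level was 185 (151 to 224), 161 (125 to 203), 185 (153 to 221) and 180 (143 to 223) CPM, with a UMI in 44.9%, 47.5%, 45.0% and 50.5% of nuclei. The 4 libraries thus gave the same Drd3 level within counting error. D1-type nuclei had 7.76, 10.6, 19.5 and 24.8 CPM and D2-type nuclei 8.22, 6.28, 31.8 and 20.1 CPM. The background was far lower than for Drd1 and Drd2, since oligodendrocyte-like nuclei held 0, 2, 2 and 2 UMIs of Drd3, that is, at most 0.634 CPM.

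Levels of different genes were set against each other per length, and the order depended on the length taken. Counts of 3′ ends need not scale with either length. Per kb of exon, Drd2 in D2-type nuclei stood at 220, 230, 180 and 199, Drd3 in other SPN-like nuclei at 108, 94.0, 108 and 105, and Drd1 in D1-type nuclei at 62.3, 79.8, 71.0 and 59.8 CPM per kb. Per kb of gene span, Drd1 came first at 49.97, 64.0, 57.0 and 47.9, Drd2 followed at 8.29, 8.67, 6.79 and 7.52, and Drd3 was lowest at 2.68, 2.34, 2.68 and 2.61 CPM per kb. Whether intronic reads were counted is not given in the sources used here, so neither order was preferred.

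Finer division of the SPN-like nuclei gave 13 subclusters, in which the receptors were unevenly placed. Drd3 was concentrated in subcluster 7, of 165 nuclei led by Stac, Lrrc38 and Prok2, at 441 (379 to 510) CPM with a UMI in 62.4% of nuclei. Its level there was 407, 497, 478 and 383 CPM in the 4 libraries. Subclusters 11 and 3, also of the other SPN-like group, had 181 and 106 CPM, and the next was D2-type subcluster 5 with 35.8 (26.0 to 48.0) CPM. Subcluster 12, a D1-type group of 52 nuclei, had 0 UMIs of Drd3. Drd1 in turn was lower in subcluster 7, at 97.4 (69.6 to 133) CPM, than in subcluster 3, at 223 (200 to 249) CPM. Subcluster 11 had 160 (108 to 228) CPM of Drd1, an interval that overlapped both. In point value only, the order of Drd1 over the 3 other SPN-like subclusters was the reverse of that of Drd3. Median depth was 2456 UMIs in subcluster 7 and 5263 in subcluster 3.

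Among D1-type subclusters Drd1 ran from 188 (138 to 250) CPM in subcluster 12 to 321 (290 to 355) CPM in subcluster 4, whose leading genes included Pdyn. The largest, subcluster 0 with 716 nuclei, had 243 CPM. Among D2-type subclusters Drd2 ran from 313 (260 to 372) CPM in subcluster 10 to 698 (639 to 762) CPM in subcluster 8, with subclusters 1 and 5 at 600 and 443 CPM. The D2-type subclusters therefore differed by more than their counting error. Nuclei of untyped subcluster 2 carried both at middling levels, 144 CPM of Drd1 and 172 CPM of Drd2, at a median depth of 1808 UMIs. The other untyped group, subcluster 9 with 115 nuclei, had 117 CPM of Drd1 and 76.3 CPM of Drd2. Its median depth was 4919 UMIs, so not all untyped nuclei were shallow.

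**Figure D2:**
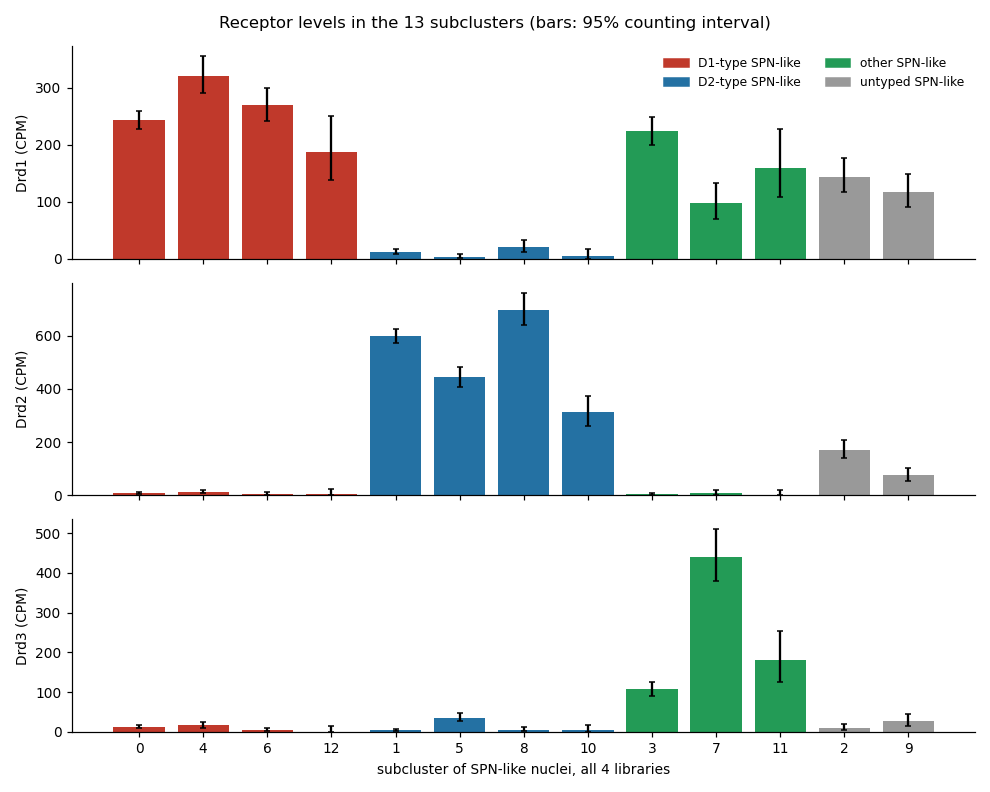
Level (CPM, linear axis) of Drd1, Drd2 and Drd3 in the 13 subclusters of SPN-like nuclei, all 4 libraries summed, coloured by type; bars are 95% counting intervals. Drd3 peaks in subcluster 7 at 441 CPM, Drd2 ranges from 313 to 698 CPM over the D2-type subclusters, and Drd1 is present in every D1-type and other SPN-like subcluster.

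Drd4 was close to undetected, with 9, 15, 7 and 10 UMIs per library, or 41 in all. Sst interneuron-like nuclei, first in order, averaged 1.33 CPM on 4 UMIs, and no class held more than 5 UMIs. Its pattern cannot be described at this depth.

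Drd5, the other D1-family member, was sparse, with 108, 143, 222 and 187 UMIs. Dentate granule-like nuclei had 5.84, 9.94, 13.8 and 5.63 CPM, and hippocampal pyramidal-like nuclei 8.87, 7.32 and 1.35 CPM in the 3 libraries with at least 50 of them. SPN-like nuclei held only 1, 4, 2 and 3 Drd5 UMIs, or 0.194 to 1.87 CPM. Oligodendrocyte-like nuclei gave 0.727, 1.90, 2.32 and 2.16 CPM. The hippocampal-like nuclei of the cortex-labelled libraries were thus above the glial level and SPN-like nuclei were not. Among classes with at least 50 nuclei in a library, averaged over libraries, red blood cell-like nuclei ranked first for Drd5 on 2 UMIs. The cholinergic-like cluster, with fewer nuclei in each library, had 10.7 (4.30 to 22.0) CPM over all libraries. That level came from 4, 2, 0 and 1 UMIs in 99 nuclei.

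Seen from the gene rather than the cell, SPN-like nuclei held 41.5%, 50.1%, 36.6% and 32.5% of all Drd1 UMIs and 67.4%, 68.0%, 22.5% and 22.2% of all Drd2 UMIs. For Drd3 the shares were 58.7%, 58.7%, 39.0% and 27.1%, and for Drd5 0.926%, 2.80%, 0.901% and 1.60%. Neurons left unresolved, that is, with pan-neuronal markers but no named type, held 16.7%, 14.7%, 24.5% and 30.8% of Drd1 UMIs and 8.72%, 10.1%, 27.9% and 32.2% of Drd2 UMIs. Non-neuronal classes held 15.3%, 13.2%, 18.7% and 19.0% of Drd1 UMIs, spread over many nuclei at the low levels given above. Most Drd5 UMIs of the cortex-labelled libraries lay in hippocampal-like, at 30.6% and 29.4%, and cortical excitatory-like nuclei, at 25.9% and 32.9%.

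**Figure D3:**
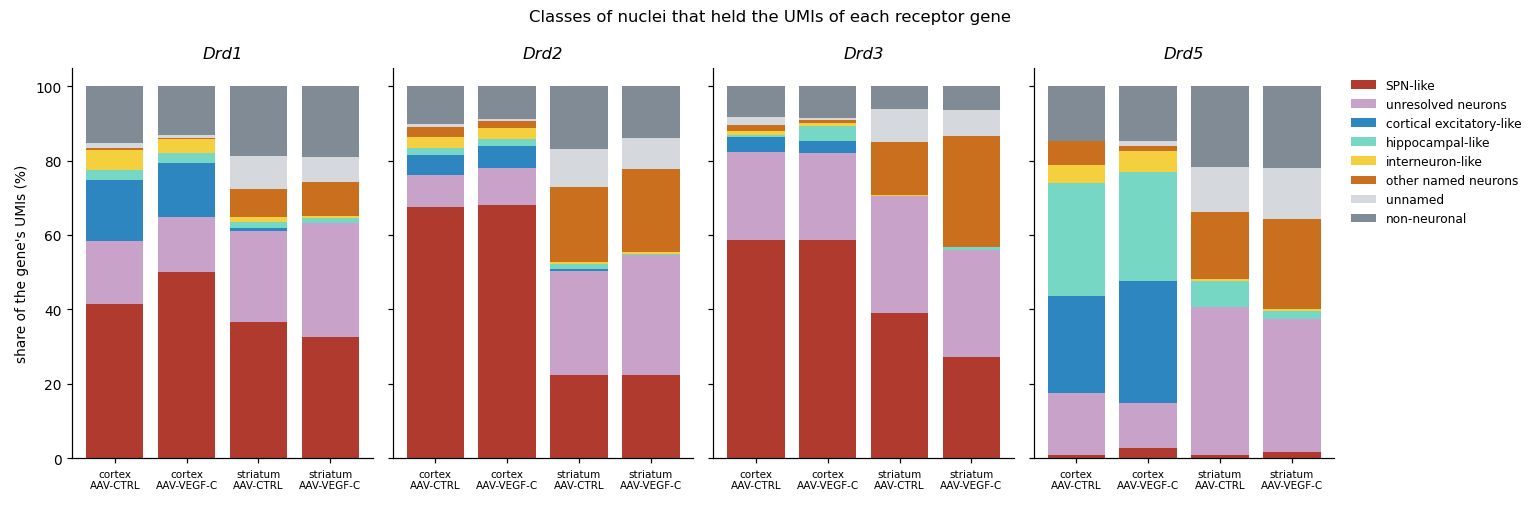
Share of the UMIs of Drd1, Drd2, Drd3 and Drd5 (percent, stacked to 100) by class of nuclei in each library; Drd4, with 41 UMIs, is left out. SPN-like nuclei hold 67.4% and 68.0% of Drd2 UMIs under the cortex label and 22.5% and 22.2% under the striatum label.

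The design also asks whether Drd1 and Drd2 were found in the same nucleus. Of SPN-like nuclei, 24, 44, 6 and 7 had at least 1 UMI of both, which was 2.04% (1.31 to 3.02), 3.01% (2.20 to 4.02), 1.40% (0.516 to 3.03) and 2.29% (0.925 to 4.66). Drd1 alone or with Drd2 was detected in 33.8%, 39.6%, 36.2% and 37.9%, and Drd2 in 33.8%, 37.5%, 23.6% and 29.7% of them. The product of these shares, the value if detection of the genes were unrelated, was 11.4%, 14.8%, 8.55% and 11.3%. Co-detection was thus 0.179, 0.203, 0.164 and 0.203 times the product, and the upper limit of its interval was below the product in every library. Among nuclei with either gene, 3.12%, 4.07%, 2.40% and 3.50% had both.

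Known pairs of the same and of opposite pathways set the scale. Tac1 with Penk, peptides of opposite pathways, gave 0.443, 0.486, 0.290 and 0.460 times the product, and Pdyn with Adora2a gave 0.307, 0.223, 0.129 and 0.172 times. Drd1 with Tac1, of the same pathway, gave 1.54, 1.56, 1.43 and 1.43 times, and Drd2 with Adora2a 2.32, 2.18, 3.31 and 2.79 times. The receptor pair stood at the low end, beside Pdyn with Adora2a. Drd1 with Drd3 over the same SPN-like nuclei gave 0.936, 1.28, 1.10 and 1.26 times the product. Within other SPN-like nuclei, 15.6%, 22.2%, 18.8% and 24.7% had a UMI of each, 0.826, 0.813, 0.926 and 1.03 times the product there.

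Depth, doublet scores and background were set beside the co-detection share, and their part in it was not tested. The 81 nuclei with both receptors had a median of 5226 UMIs, against 5079 for those with Drd1 only, 4713.5 with Drd2 only and 3439 with neither. Their median doublet score was 0.0242, against 0.0286 and 0.0254 for those with Drd1 or Drd2 only. Among barcodes removed as doublets or with doublet-rich clusters, the share with both was 2.76% (0.757 to 6.91), 4.11% (1.90 to 7.66), 2.04% (0.0517 to 10.9) and 5.26% (0.133 to 26.0) of SPN-like nuclei. This was 4 of 145, 9 of 219, 1 of 49 and 1 of 19 barcodes, and the intervals overlapped those of the kept nuclei. The removed barcodes were deeper, at a median of 6928, 7106, 5463 and 6829 UMIs against 4371, 4596, 4179.5 and 5319 for kept SPN-like nuclei. Thinned to 1000 UMIs, 2, 7, 0 and 0 kept nuclei had both genes, that is, 0.171%, 0.480%, 0% and 0% against products of 1.67%, 2.42%, 1.55% and 1.26%. The 0 of 426 and 0 of 306 nuclei allow shares of up to 0.862% and 1.198% by the exact binomial interval.

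Of the 81 nuclei, 29 were D1-type, 43 D2-type, 5 other SPN-like and 4 untyped, and a UMI of Tac1 was found in 43.2% and of Penk in 61.7% of them, between the values of nuclei with Drd1 only (70.4% and 13.0%) and Drd2 only (10.5% and 87.8%). Within D1-type nuclei the share with both was 1.57%, 2.70%, 1.03% and 5.33% beside products of 1.57%, 2.55%, 1.45% and 3.91%, and within D2-type nuclei it was 3.60%, 4.34%, 1.80% and 2.41% beside 3.66%, 4.11%, 2.12% and 2.12%. Inside a type, then, co-detection was close to the product. The receptor of the other type was also near background at matched depth. After thinning, Drd1 was found in 1.202%, 1.63%, 0.909% and 0% of D2-type and in 1.82%, 1.94%, 0.843% and 0.549% of oligodendrocyte-like nuclei. Drd2 was found in 0.224%, 1.11%, 0% and 1.33% of D1-type and in 1.51%, 2.37%, 0.692% and 1.00% of oligodendrocyte-like nuclei. By contrast, 19.5%, 24.2%, 27.8% and 21.3% of thinned D1-type nuclei kept Drd1, and 40.1%, 40.0%, 39.1% and 37.3% of thinned D2-type nuclei kept Drd2.

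**Figure D4:**
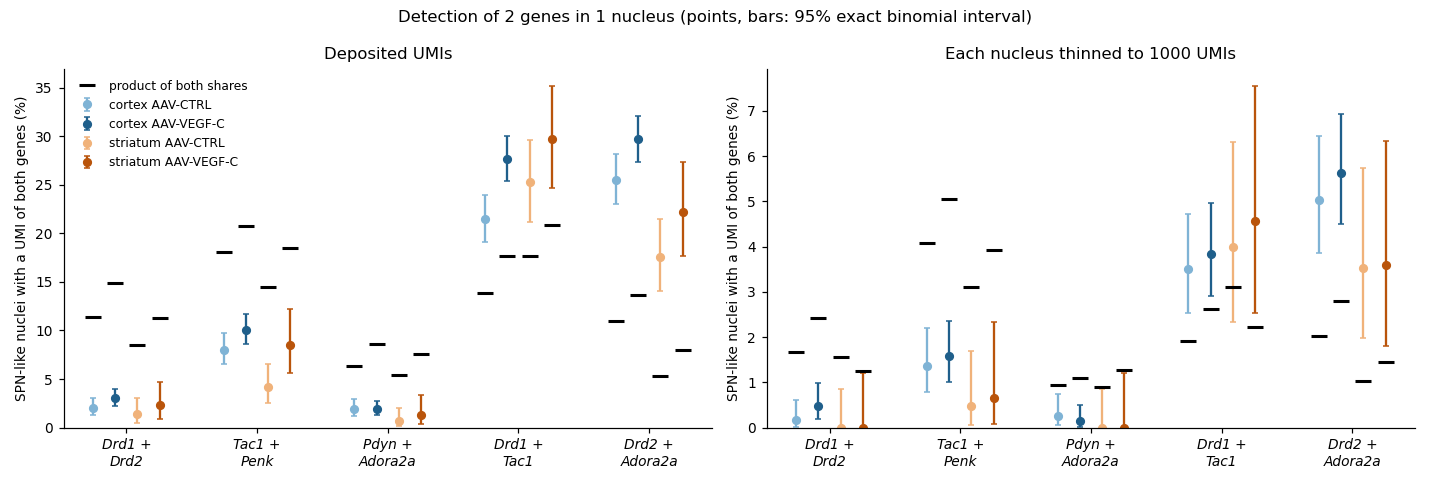
Share of SPN-like nuclei with at least 1 UMI of both genes of a pair (percent, with 95% exact binomial intervals) beside the product of the separate shares (black dashes), at deposited depth on the left and after thinning to 1000 UMIs on the right, with a different axis range. Drd1 with Drd2 lies at 1.40% to 3.01% against products of 8.55% to 14.8%, while Drd1 with Tac1 and Drd2 with Adora2a lie above their products at deposited depth.

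Detection was more frequent at greater depth in the receptor's own type. Over all libraries, Drd1 was found in 33.3%, 55.2%, 67.1% and 81.8% of D1-type nuclei with under 2000, 2000 to 4000, 4000 to 6000 and at least 6000 UMIs, and Drd2 in 40.0%, 78.0%, 87.8% and 97.1% of D2-type nuclei. The level moved less over these bins, from 223 to 267 CPM for Drd1 and from 412 to 597 CPM for Drd2, where the shallowest bins held 24 and 35 nuclei. A D1-type nucleus without a Drd1 UMI therefore cannot be called free of the transcript at these depths.

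Between AAV labels, no member with at least 20 UMIs over both libraries differed by 1.5-fold or more when all kept nuclei were summed. That was 0 of 5 members under the cortex label and 0 of 4 under the striatum label, where Drd4 had too few UMIs, beside 5.32% and 7.59% of all genes past that size. The log2 ratio of AAV-VEGF-C over AAV-CTRL for Drd1 was 0.36 (0.26 to 0.45) under the cortex label and −0.15 (−0.31 to 0.00) under the striatum label. For Drd2 it was 0.27 (0.18 to 0.36) and 0.18 (0.07 to 0.30), for Drd3 −0.38 (−0.65 to −0.11) and 0.13 (−0.07 to 0.34), and for Drd5 0.14 (−0.23 to 0.52) and −0.15 (−0.44 to 0.14). Only Drd2 was higher with AAV-VEGF-C under both labels beyond counting error, and after thinning its striatum-label ratio was 0.02. In whole libraries, more nuclei of a type and more RNA per nucleus cannot be told apart, so the ratios within types follow.

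In D1-type nuclei the Drd1 ratio was 0.36 (0.20 to 0.52) under the cortex label, from 226 to 289 CPM, and −0.25 (−0.64 to 0.14) under the striatum label, from 258 to 217 CPM. Of genes tested in these nuclei, 10.1% and 20.3% were past 1.5-fold, and Drd1 was not. By D1-type subcluster, Drd1 under the cortex label was at 214 and 265 CPM in subcluster 0, from 261 and 474 UMIs, and at 209 and 315 CPM in subcluster 6, from 104 and 227 UMIs. It was at 307 and 347 CPM in subcluster 4, from 111 and 228 UMIs, and at 172 and 199 CPM in subcluster 12, from 19 and 26 UMIs, and no interval was computed for these ratios. Other SPN-like nuclei had 0.76 (0.36 to 1.18) under the cortex label, past 1.5-fold beside 19.9% of genes, and −0.08 (−0.51 to 0.34) under the striatum label, where 20.0% of genes were. After thinning to 1000 UMIs, these nuclei had 164 and 212 CPM of Drd1 under the cortex label, a difference short of 1.5-fold. Untyped nuclei had 1.22 (0.66 to 1.80) under the cortex label, where 22.1% of genes were past 1.5-fold. Some transcripts of SPN moved with Drd1 in the same pair of libraries. In D1-type nuclei Tac1 went from 275 to 386, Pdyn from 103 to 151 and Ppp1r1b from 131 to 184 CPM, and the background of Drd1 in oligodendrocyte-like nuclei from 17.8 to 24.1 CPM. Rgs9 moved less, from 888 to 943 CPM. Under the striatum label Tac1 went from 262 to 334, Pdyn from 201 to 167 and Ppp1r1b from 150 to 102 CPM. The part of any of these in the Drd1 difference was not tested. Drd2 in D1-type nuclei was also past 1.5-fold under the cortex label, at 0.75 (−0.21 to 1.80), on 13 and 33 UMIs at levels below the glial background.

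Drd2 in D2-type nuclei differed little by AAV label, at 0.06 (−0.05 to 0.18) under the cortex label and 0.15 (−0.11 to 0.41) under the striatum label, where 10.5% and 19.7% of genes were past 1.5-fold. Dopaminergic-like nuclei gave −0.23 (−0.68 to 0.23) for Drd2 under the striatum label. Drd3 in D2-type nuclei was past 1.5-fold there, at −0.66 (−1.95 to 0.54) on 17 and 10 UMIs. Drd3 over all SPN-like nuclei was lower with AAV-VEGF-C, by log2 ratios of −0.53 (−0.88 to −0.18) and −0.28 (−0.66 to 0.09), but within the other SPN-like nuclei it was −0.20 (−0.66 to 0.25) and −0.04 (−0.46 to 0.38). Other SPN-like nuclei, the main carriers of Drd3, made up 12.5% and 6.78% of SPN-like nuclei in the cortex AAV-CTRL and AAV-VEGF-C libraries and 37.4% and 31.7% in the striatum-labelled ones.

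Thalamic neuron-like nuclei of the striatum-labelled libraries were looked at after their Drd3 values were seen. Drd3 was at 4.81 (3.40 to 6.60) and 10.0 (8.11 to 12.3) CPM with AAV-CTRL and with AAV-VEGF-C, from 38 and 93 UMIs, a log2 ratio of 1.06 (0.50 to 1.65) where 8.39% of genes were past 1.5-fold. A UMI was found in 2.46% (1.63 to 3.55) and 5.77% (4.42 to 7.38) of nuclei, at median depths of 6901 and 8581.5 UMIs. In the same nuclei Drd1, Drd2 and Drd5 had ratios of 0.30, 0.03 and 0.08, none of them past 1.5-fold.

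**Figure D5:**
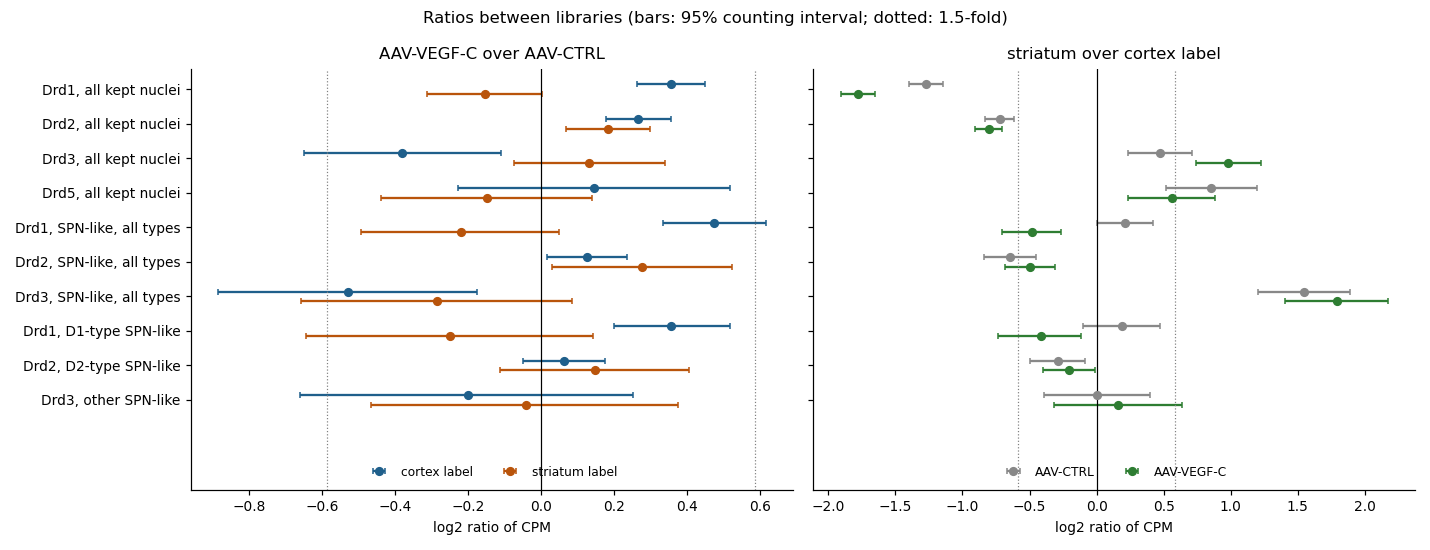
Log2 ratio of CPM between libraries for the members by population, AAV-VEGF-C over AAV-CTRL on the left and striatum over cortex label on the right; bars are 95% counting intervals, dotted lines mark 1.5-fold, and the axes have different ranges. On the left the plotted Drd1 ratios, for all nuclei, SPN-like and D1-type nuclei, are above 0 under the cortex label (0.36 in all nuclei) and below 0, with intervals that reach 0, under the striatum label (−0.15 in all nuclei), and on the right Drd3 over SPN-like nuclei stands at 1.54 and 1.79 but at 0.00 and 0.16 within other SPN-like nuclei.

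The region labels were compared in the same way. With all nuclei summed, Drd1 was lower under the striatum label, with a log2 ratio of striatum over cortex of −1.27 (−1.40 to −1.14) with AAV-CTRL and −1.78 (−1.91 to −1.65) with AAV-VEGF-C, and Drd2 was lower by −0.72 (−0.83 to −0.61) and −0.81 (−0.90 to −0.71). Drd3 was higher by 0.47 (0.23 to 0.71) and 0.98 (0.74 to 1.23), and Drd5 by 0.85 (0.51 to 1.197) and 0.56 (0.24 to 0.88). Past 1.5-fold were 3 of 4 members with AAV-CTRL and 3 of 5 with AAV-VEGF-C, where 30.4% and 30.9% of all genes were and the median over all genes was 0.18 and 0.20. These were Drd1 and Drd2, lower under both viruses beside 9.89% and 9.71% of genes, and Drd5 with AAV-CTRL and Drd3 with AAV-VEGF-C, higher beside 20.5% and 21.2% of genes. After thinning, the Drd3 ratio with AAV-CTRL turned to −0.23 (−0.69 to 0.23).

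Over SPN-like nuclei the ratio was 0.21 (0.00 to 0.42) and −0.48 (−0.70 to −0.26) for Drd1, −0.64 (−0.84 to −0.45) and −0.49 (−0.68 to −0.31) for Drd2, and 1.54 (1.203 to 1.89) and 1.79 (1.41 to 2.17) for Drd3, where 18.9% and 20.7% of genes were past 1.5-fold. Within SPN types the differences of Drd1 and Drd2 were smaller than in whole libraries. Drd1 in D1-type nuclei gave 0.19 (−0.10 to 0.47) and −0.42 (−0.73 to −0.11), and Drd2 in D2-type nuclei −0.29 (−0.49 to −0.09) and −0.21 (−0.40 to −0.01), none of them past 1.5-fold. Different subclusters held most D2-type nuclei under each label: subcluster 1, with 246 and 373 nuclei, under the cortex label, and subcluster 5, with 71 and 45, under the striatum label. D1-type subcluster 6 had 97 and 128 nuclei under the cortex label and 1 and 1 under the other. Drd3 in other SPN-like nuclei gave 0.00 (−0.39 to 0.40) and 0.16 (−0.32 to 0.64), so that within its main carriers no region difference was seen beyond counting error, while those nuclei were a larger share of SPN-like nuclei under the striatum label (given above). Drd1 in the same nuclei gave 0.20 (−0.21 to 0.61) and −0.65 (−1.08 to −0.23), the latter past 1.5-fold where 21.7% and 22.7% of genes were. In D1-type nuclei the Drd3 ratio was 1.33 (0.04 to 2.54) and 1.23 (0.10 to 2.24), and in D2-type nuclei 1.95 (0.88 to 3.03) and 1.68 (0.39 to 2.88), all 4 past 1.5-fold where 24.7%, 27.8%, 24.8% and 25.4% of genes were, but on 10 to 35 UMIs a library. Unresolved neurons had lower Drd1 under the striatum label, at −2.02 (−2.30 to −1.74) and −2.12 (−2.38 to −1.86) beside 37.3% and 38.3% of genes past 1.5-fold, at median depths of 1682 and 1749 UMIs under the cortex label and 4586.5 and 5362 UMIs under the striatum label. A cluster with 43.0 CPM of Drd1 held 1762 and 1928 of the 2709 and 3037 unresolved neurons under the cortex label. Under the striatum label it held 45 and 13 of 4580 and 3891, so this ratio compares unlike sets of clusters.

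The rest of the pathway, 52 genes in 6 lists, was read in SPN-like nuclei. Of the genes with enough UMIs between AAV labels, 1 of 48 was higher and 0 lower under the cortex label, and 2 of 49 were higher and 2 lower under the striatum label, beside 7.80% and 11.9% of all genes past 1.5-fold in either direction (3.95% higher and 3.85% lower, and 7.03% higher and 4.83% lower). Under the cortex label this was Ddc, which makes dopamine from its precursor, with 11 and 24 UMIs and a ratio of 0.71 (−0.37 to 1.89). Under the striatum label the dopamine transporter Slc6a3, on 13 and 18 UMIs, and the arrestin Arrb2, on 23 and 32 UMIs, were both at 0.68, the receptor kinase Grk5 at −0.65 (−1.06 to −0.24) and the potassium channel Kcnj6 at −0.77 (−1.36 to −0.21). The lists of G protein subunits and of adenylyl cyclase, phosphodiesterase and DARPP-32 held no gene past 1.5-fold under either label, with medians of 0.04 and 0.11 under the cortex label and 0.11 and −0.04 under the striatum label. In 4 of the lists the genes with the most UMIs were Gnal, which encodes the Golf subunit, at 687 to 706 CPM, Pde10a, a cyclic nucleotide phosphodiesterase, at 2567 to 3683, Rgs9, a regulator of G protein signalling, at 644 to 893, and the calcium channel Cacna1c at 776 to 1025 CPM.

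Between region labels, 5 of 48 genes were higher and 3 lower with AAV-CTRL and 7 higher and 5 lower with AAV-VEGF-C, where 18.9% and 20.7% of all genes were past 1.5-fold (10.5% higher and 8.36% lower, and 1601 of 13287 genes higher and 8.66% lower). By size, the leading ones with AAV-CTRL were Ddc at 2.92, the cannabinoid receptor Cnr1 at −1.78, the vesicle transporter Slc18a2 at 1.56 and the amine oxidase Maob at 1.19. With AAV-VEGF-C they were Slc18a2 at 2.14, Ddc at 2.10, Cnr1 at −1.82 and Maob at 1.31. Genes of dopamine synthesis were low in level in SPN-like nuclei, with Ddc at 2.14, 3.51, 16.2 and 15.0 CPM. Dopaminergic-like nuclei were found in number only in the striatum-labelled libraries, and what they add to these low levels was not tested.

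Genes whose pattern was most like that of each receptor were sought over 30 classes of nuclei among 15662 genes, by Pearson's r of log2(CPM + 1), as a description over classes that share the 4 libraries. For Drd1 these were Tac1 at 0.85, Impg1 at 0.83, Pdyn at 0.82, Il20ra at 0.82 and Slc35d3 at 0.81. For Drd2 they were Penk at 0.73, Ankk1 at 0.73, Gpr6 at 0.73, Gm8239 at 0.70 and Pcdhb7 at 0.69, and for Drd3 Gpr149 at 0.82, Atp6v1c2 at 0.82, Gm31251 at 0.80, Rarb at 0.79 and Tcfl5 at 0.77. Tac1, Pdyn, Slc35d3, Penk and Gpr6 were among the markers that named the SPN types, and Rarb among those of SPN. Between members, r was 0.64 for Drd1 with Drd3, 0.29 for Drd2 with Drd3 and 0.08 for Drd1 with Drd2. Drd5 reached the minimum of 10 CPM only through the 2 UMIs in red blood cell-like nuclei, so its list is not given, and Drd4 did not reach it.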

How the data were processed

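Nuclei from frozen, pulverised brain tissue were profiled by single-nucleus RNA-seq (10x Chromium 3′ v3). The deposited matrices hold UMI counts per gene and barcode, which the authors made with Cell Ranger; the file headers give version 5.0.1 and the submitters' processing notes give 5.1.1 with the mm10 genome. The gene annotation, and the treatment of introns in counting, are not given in the sources used here. The authors' own clusters and filters were not used, so that differences from the study may come from rebuilt names.

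From the counts as deposited, doublets were called with Scrublet (expected rate 8%), and called barcodes and clusters with at least 40% of them were left out, 17 of 76 clusters. With scanpy 1.11.5, each nucleus was scaled to 10000 UMIs and put on a log scale, and 5000 variable genes without the 5 receptor genes, 50 components, 15 neighbours and Leiden resolution 1.2 gave the clusters. The libraries were not integrated. A class was named where at least 3 and at least 50% of its markers were 2-fold higher than in the rest and found in 10% of nuclei; the class with the highest product of that share and the mean log2 fold was taken. A cluster with no type and 6 of 8 pan-neuronal markers at 2-fold the astrocyte- and oligodendrocyte-like level was called an unresolved neuron. SPN-like nuclei were clustered again (resolution 0.8, 2000 genes, 30 components) and typed by the highest share of markers at 1.25-fold. These thresholds were set after cluster marker scores and sizes were seen, before receptor levels by class were looked at, and earlier forms of 2 of the rules were replaced.

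A level is the summed count per 1000000 UMIs of a class in a library (CPM), with an exact Poisson interval; shares have exact binomial (Clopper-Pearson) intervals, and log2 ratios an exact conditional binomial interval, all at 95% and covering counting error only. The ratio step was tested on simulated data. A gene was called where its ratio was past 1.5-fold with at least 20 UMIs over both libraries. Thinning drew 1000 UMIs per nucleus without replacement and left out 636, 700, 1482 and 425 shallower nuclei. No test was run, since each group is 1 library. Gene positions are from GENCODE M21 on GRCm38.

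The members, markers and pathway lists were chosen with earlier results of these data known. The text names the 5 receptors, in each pathway list the gene with the most UMIs (in 2 of the lists it is not reported here), up to 4 pathway genes past the threshold a comparison by size, and the 5 genes most like each receptor. Alternatives were no doublet removal, resolution 2.0, clustering with the receptor genes, at least 1000 UMIs, thinning, a gate on marker UMIs, other call thresholds and earlier naming rules.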

Additional observations from a re-analysis of the deposited data

Results flagged for a closer look

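The AAV ratio, the log2 ratio of AAV-VEGF-C over AAV-CTRL, pointed opposite ways under the cortex and striatum labels for several members, each label having 1 library per virus. The cortex-label ratio minus the striatum-label ratio was 0.51 for Drd1, −0.51 for Drd3 and 0.29 for Drd5 over all kept nuclei. For Drd1 it was 0.69 over SPN-like nuclei and 0.61 within D1-type nuclei. These differences were not tested, since no group had a second library, and the libraries under the 2 labels differed in their makeup of nuclei. For Drd5 both ratios had intervals that included 0. For Drd1 and Drd3 the striatum-label intervals reached or included 0 (given above), so the opposite direction under that label was not clear of counting error.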

How the results depend on the processing

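Of 417 values recomputed under other settings, 376 stayed within the main value's interval or count limit, 41 moved and 0 reversed a call. All values stayed so at resolution 2.0, with the receptor genes allowed in the clustering, with at least 1000 UMIs per nucleus, and with 3 pan-neuronal markers, the last added after seeing the data. The moves were uneven over settings: thinning moved 23 values and left 28, and an earlier rule for SPN types moved 12 and left 24. The thinned Drd3 region ratio with AAV-CTRL over all nuclei changed sign (given above). With every nucleus thinned to 1000 UMIs, co-detection of Drd1 and Drd2 in SPN-like nuclei was 0.171%, 0.480%, 0% and 0%. The thinned AAV ratio was 0.19 for Drd1 and 0.0187 for Drd2 over all nuclei (cortex and striatum label), and −0.0502 for Drd2 in D2-type nuclei (cortex label). Thinned region ratios were −0.84 and −1.04 for Drd2 over all nuclei, 0.48 and −0.088 for Drd1 in D1-type nuclei, and −0.0567 for Drd2 in D2-type nuclei with AAV-CTRL. Thinning gives every nucleus equal weight. Typing single nuclei by marker UMIs gave an AAV ratio of 0.54 for Drd1 in D1-type nuclei under the cortex label. An earlier typing rule, added after seeing the data, put Drd1 in D1-type nuclei of the cortex-labelled libraries at 307 and 347 CPM, with an AAV ratio of 0.18 and a region ratio of −0.13 with AAV-CTRL. Those levels are the ones of subcluster 4 alone, which had 252 nuclei, so the earlier rule described a smaller set of nuclei. For the other values that moved, the cause was not tested. Pathway genes past the threshold numbered 0 and 2 with at least 100 UMIs, 0 and 0 at 2-fold, and 0 under the cortex label without doublet removal.

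No paired analysis was possible because the labels carry no replicate numbers and the results come from no test. Leaving out a replicate was not possible either, with 1 library per group, and the spread between mice was not measured, since tissue of 5 mice was pooled for each virus. Drd4 and Drd5 were limited by depth, and receptor shares per nucleus by the depth of that nucleus.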

Other observations

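Receptor transcripts were also high in clusters that carry no class name or belong to no comparison, chosen here after their values were seen. An unresolved neuronal cluster of 527 nuclei with Foxp2, Tshz1 and Otof among its leading genes held all 3 of the main receptors, at 104 CPM of Drd1, 54.8 CPM of Drd2 and 38.1 CPM of Drd3 over all libraries, with 181, 171, 108 and 67 nuclei. By library Drd1 was at 92.2, 133, 60.2 and 122 CPM, Drd2 at 55.3, 86.2, 10.0 and 38.3 CPM and Drd3 at 36.9, 48.1, 37.7 and 17.4 CPM. The Drd2 value of the striatum AAV-CTRL library rests on 4 UMIs and was close to the 9.27 CPM of oligodendrocyte-like nuclei there, and the Drd3 value of the striatum AAV-VEGF-C library rests on 5 UMIs. An unnamed cluster of 88 nuclei with Sim1, Foxb1 and Lhx1 among its leading genes, all of which encode transcription factors, was found under the striatum label only and had 63.7 and 84.2 CPM of Drd3. Neuroblast-like cluster 35 had 48.9 CPM of Drd2 and 17.6 CPM of Drd3, and a subcortical GABAergic-like cluster 45.8 CPM of Drd2. After the cluster of 527 nuclei, the clusters outside SPN-like nuclei with the highest Drd1 levels had 43.4 CPM, with Nr4a2 and Ntng2 among the leading genes, and 43.0 CPM, in an unresolved cluster of 3748 nuclei led by Nrgn and Tbr1.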
